A study of Mus musculus with 6 samples.

Results

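The semaphorins, plexins and neuropilins were described in the repair tissue of a bone cut in mice lacking Cyp24a1, the enzyme that inactivates the hormone form of vitamin D. Members were all genes with a probe set named by 1 symbol in the array annotation that begins with Sema or Plxn, together with Nrp1 and Nrp2. This gave 32 of 18193 genes, measured by 79 of 45037 probe sets. They comprise 20 semaphorins, 9 plexins, 2 neuropilins and Plxna4os1, an RNA transcribed antisense to Plxna4 that encodes no plexin. Each gene is given by its probe set with the highest mean over all arrays, chosen without regard to genotype, and every probe set is given for Sema4d and Plxnc1.

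The tissue was callus, taken on day 14 after a tibial cut stabilised by a rod in the marrow cavity, from mice 12 weeks old on a mixed C57BL6J x 129SV background. One group of 3 arrays came from Cyp24a1 (-/-) mice, called null, and the other 3 from Cyp24a1 (+/-) littermates, called heterozygous. No wild-type group was analysed, so both groups carry at least 1 disrupted copy of Cyp24a1. Total RNA was hybridised to the Affymetrix mouse expression array, and all values are on the log2 scale, where a difference of 1 is a 2-fold change. Replicate numbers follow the order of deposit and pair no null array with a heterozygous one, since the labels do not say which animals shared a litter. The labels do not state that each array is a separate mouse, so p-values measure the spread between these arrays.

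Semaphorins are signalling proteins that share an extracellular sema domain. Class 3 members are secreted, classes 4 to 6 span the membrane and class 7 is held there by a lipid anchor. Plexins are their main receptors and act through an intracellular domain that switches off Ras-family GTPases, while neuropilins bind most class 3 semaphorins and pass the signal to an A-type plexin. In bone, Sema4d made by osteoclasts restrains osteoblasts through Plxnb1, and Sema3a acting on Nrp1 restrains osteoclasts and favours osteoblasts. The same families guide axons and vessels and act in immune cells.

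Of the 6 arrays, null replicate 1 and heterozygous replicate 3 stood apart, being low in marrow transcripts. All 8 neutrophil markers were measured, and their mean level was 6.81 and 6.23 on these arrays against 11.47 to 11.96 on the other 4. The mean of 6 erythroid markers, of 8 sought, was 3.42 and 4.003 against 7.84 to 8.75. Callus markers were present on all arrays: the bone collagen gene Col1a1 lay between 13.57 and 14.28 and the cartilage collagen gene Col2a1 between 7.04 and 9.76. Skeletal muscle transcripts were also abundant, with a mean level of 13.51 to 13.89 over 8 markers. Cyp24a1 itself was near the floor of the array, at 2.71 to 3.69. One of its probe sets was 0.46 higher in null callus without overlap of the groups and the other differed by -0.07, and the labels do not say which stretch of the gene was removed, so these values do not check the genotypes. The sex-linked transcript Xist was high on null replicate 1 and heterozygous replicate 1 only, so each group mixed arrays with and without it. No term for this was in the fit. In such bulk tissue fewer cells of a type and less RNA per cell cannot be told apart.

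The sequences before the start sites of Sema4d and Plxnc1 are shown first, because both genes are described by every probe set and Sema4d has 3 annotated start sites and probe sets that did not differ alike. Sema6a, which differed more than Plxnc1, is not shown because no sequence around its start was held. The bases before each start come from RefSeq (GRCm38.p6), 250 per site, on the gene's own strand, which is the minus strand for both genes. For Sema4d they are chr13:51756684-51756933, chr13:51748811-51749060 and chr13:51739447-51739696, in the order of transcription, and for Plxnc1 chr10:94944846-94945095. Capitals mark the half-sites to which nuclear receptors such as the vitamin D receptor can bind (4 spellings, given below, on both strands).
Sema4d start site 1: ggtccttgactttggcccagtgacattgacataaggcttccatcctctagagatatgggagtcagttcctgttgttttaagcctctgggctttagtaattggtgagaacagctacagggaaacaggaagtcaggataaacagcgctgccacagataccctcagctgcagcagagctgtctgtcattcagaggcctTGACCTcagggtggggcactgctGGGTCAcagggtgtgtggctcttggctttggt
Sema4d start site 2: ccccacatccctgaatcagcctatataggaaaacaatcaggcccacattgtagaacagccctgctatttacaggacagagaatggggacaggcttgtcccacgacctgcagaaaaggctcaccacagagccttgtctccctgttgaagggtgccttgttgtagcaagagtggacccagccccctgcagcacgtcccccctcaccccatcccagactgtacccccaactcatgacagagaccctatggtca
Sema4d start site 3: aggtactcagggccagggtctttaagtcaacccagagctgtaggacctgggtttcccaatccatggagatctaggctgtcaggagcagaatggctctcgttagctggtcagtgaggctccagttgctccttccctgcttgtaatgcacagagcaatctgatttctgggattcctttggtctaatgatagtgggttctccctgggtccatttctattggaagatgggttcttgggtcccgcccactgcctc
Plxnc1 start site: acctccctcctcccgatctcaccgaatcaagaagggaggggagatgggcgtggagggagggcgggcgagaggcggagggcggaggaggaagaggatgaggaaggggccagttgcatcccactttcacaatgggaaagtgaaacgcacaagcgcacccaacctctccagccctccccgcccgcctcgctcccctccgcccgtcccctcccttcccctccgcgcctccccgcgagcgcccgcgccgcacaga

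The first Sema4d sequence holds 2 such half-sites, TGACCT beginning 55 bases and GGGTCA beginning 32 bases before the start, and the other sequences shown hold none. Both Sema4d matches are single half-sites, not the direct repeat with a 3-base gap that the vitamin D receptor prefers. Windows of 300 bases around the start were held for 26 members, 37 windows in all. None was held for Plxna1, Plxna4, Plxna4os1, Sema3b, Sema3f and Sema6a. The direct repeat was in 0 of these 37 windows and in 0.0396% of all 32851 windows. The half-site AGGTCA was in 7 member windows (18.9%) and in 16.3% of all windows. The spelling GGGTCA was also in 7, against 13.7% of all. The spelling AGTTCA was in 1 (14.0% of all), and GGTTCA in 0 (10.4% of all). Any of the 4 was in 12 of 37 member windows (32.4%) and in 43.7% of all windows. Base composition differed more. The GC box GGGCGG, searched on both strands, was in 27 of 37 member windows (73.0%) against 35.7% of all windows, and the TATA box sequence TATAAA was in 0 against 13.6%. The median GC content was 63.7% in member windows and 52.7% in all. Plxnc1 is of the GC-rich kind, with 22 CG pairs in the 250 bases shown, while the Sema4d sequences hold 1, 2 and 2. These matches describe the letters only. No source used here places the probe sets along the transcripts, so none is assigned to a start site.

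The question put to each gene was whether its level differs between null and heterozygous callus. On the probe set standing for each gene, Sema4d and Sema6a read lower in null callus and Plxnc1 read higher, none passing after adjustment. The other probe sets of Sema4d did not share its difference. Of the 32 members, 18 were higher in null callus (49.6% of all genes were) and 14 lower, and 24 differed by less than 0.2. The median difference was 0.02, beside -0.0017 over all genes. These directions rest on 1 probe set a gene. Of the 25 members with several probe sets, 15 had probe sets of both signs. They were Nrp1, Nrp2, Plxna1, Plxna2, Plxnc1, Sema3c, Sema3d, Sema3e, Sema4b, Sema4d, Sema4f, Sema5a, Sema5b, Sema6c and Sema6d. By limma, with p-values adjusted by Benjamini-Hochberg across the whole array, 0 members passed an adjusted p of 0.05 (lowest adjusted p = 0.999). Over all probe sets 0% passed, with a lowest adjusted p of 0.775, and 1660 had an unadjusted p under 0.05. None of the differences below is therefore a call. An unadjusted p under 0.05 was reached by 3 members, 2 lower and 1 higher in null callus, where 4.49% of all genes reached it. The groups did not overlap for the same 3 members, against 10.1% of all genes (4.14% higher and 5.99% lower in null). A share of 3 in 32 is near that background of groups without overlap. It is above the 4.49% at the unadjusted threshold but rests on 3 genes, so the counts do not set the family apart. A two-sided exact permutation test of 3 arrays against 3 cannot go below p = 0.1, which these 3 members reached.

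**Figure D1:**
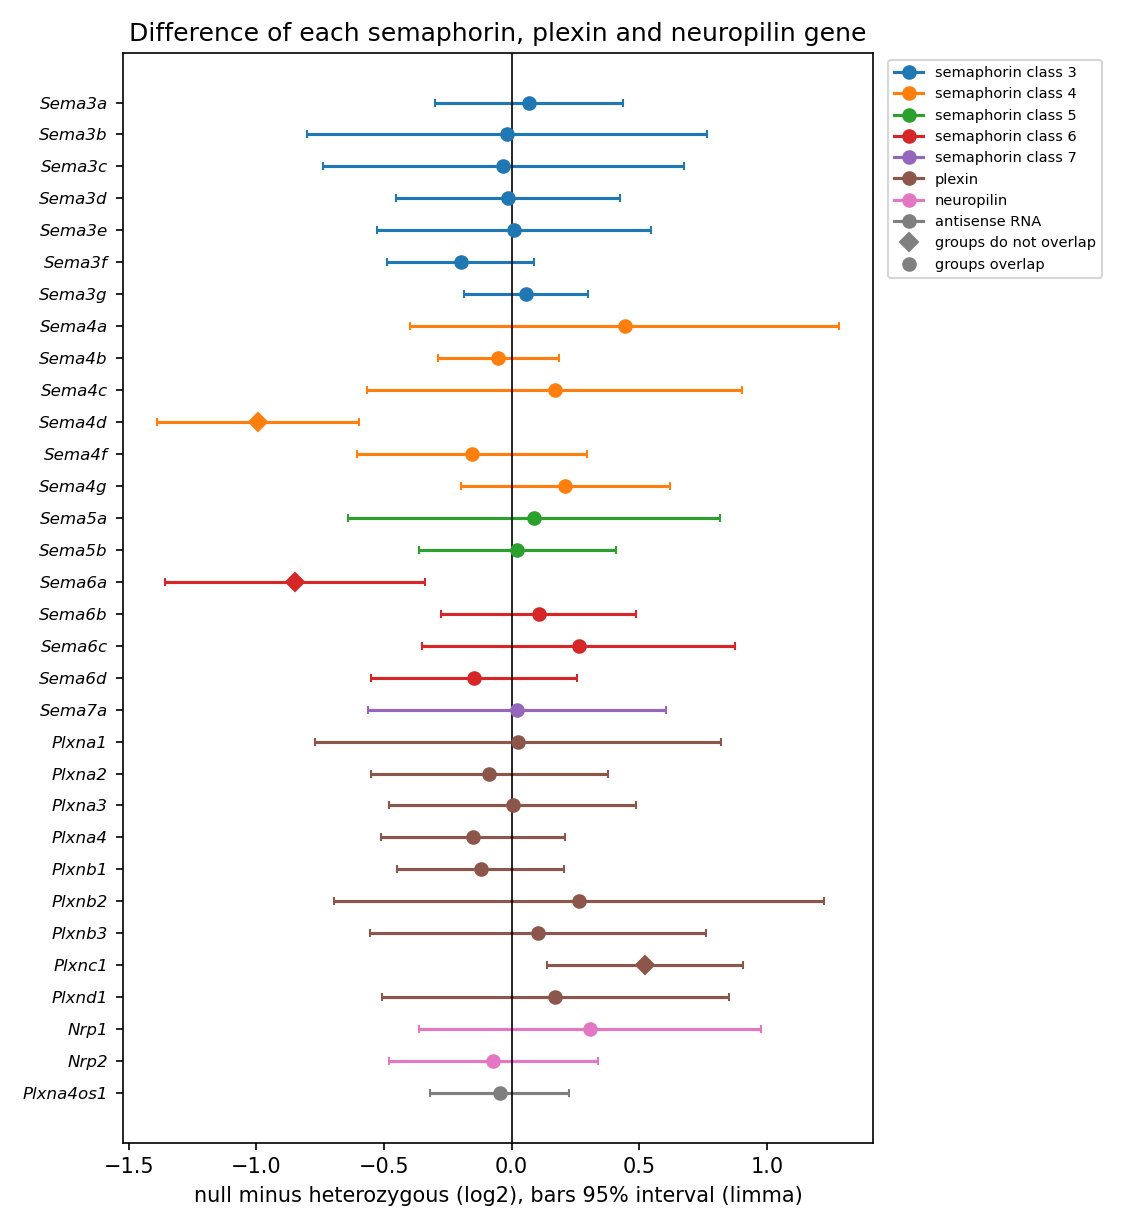
Difference of each of the 32 genes between null and heterozygous callus on the log2 scale, with 95% intervals from limma and 3 arrays a group, grouped by class. Diamonds mark the 3 genes whose groups do not overlap: Sema4d at -0.99, Sema6a at -0.85 and Plxnc1 at 0.52.

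Sema4d, a membrane semaphorin that can be shed and is known from lymphocytes and osteoclasts, had the largest difference among the members. Its probe set 1434596_at read 8.29, 8.43 and 8.12 on the null arrays and 9.39, 9.46 and 8.97 on the heterozygous arrays. Every null value lay below every heterozygous value, with a gap of more than 0.5 between the groups. The means were 8.28 ± 0.15 (SD, n = 3) and 9.27 ± 0.26 (SD, n = 3). The difference was -0.99 (SE 0.16, 95% interval -1.39 to -0.60), a 1.99-fold higher heterozygous level, with an adjusted p of 0.999 in limma. The other probe sets of Sema4d did not share it. Probe set 1420824_at read 7.97, 7.88 and 7.75 in null against 7.87, 7.58 and 8.02 in heterozygous callus, a difference of 0.04 (95% interval -0.30 to 0.39). Probe set 1420823_at read 5.86, 6.19 and 5.54 against 6.17, 5.66 and 6.23, a difference of -0.15 (95% interval -0.69 to 0.38). On both of these the groups overlap, and both intervals leave out a change as large as that of 1434596_at. Averaged over the 3 probe sets, the gene differed by -0.37 (unadjusted p = 0.0268 in limma). The difference on 1434596_at was -0.90 to -1.15 when any 1 array was left out, and -1.15 without both marrow-poor arrays.

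The receptors of Sema4d did not separate the groups. Plxnb1, its high-affinity receptor, read 6.17, 6.00 and 5.94 on the null arrays against 6.06, 6.03 and 6.38. Plxnb2, a related receptor found on many cell types, read 9.28, 7.98 and 8.55 against 8.19, 7.87 and 8.96. In both genes the highest 2 values were those of null replicate 1 and heterozygous replicate 3, 1 array of each group. The differences were -0.12 (95% interval -0.45 to 0.20) for Plxnb1 and 0.26 (95% interval -0.70 to 1.23) for Plxnb2, so a level of Plxnb2 in null callus more than 2-fold higher lies within its interval. The value for Plxnb2 ranged from -0.07 without null replicate 1 to 0.57 without null replicate 2 and 0.58 without heterozygous replicate 3. Plxnb3, the third B-type plexin, differed by 0.10. Cd72, the other Sema4d receptor known from B cells, read 6.50, 5.54 and 4.88 against 5.96, 5.04 and 5.75, a difference of 0.05. Of the proteases that shed Sema4d, Mmp14 differed by 0.38 (SE 0.42) and Adam17 by 0.06 (SE 0.17).

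Markers of the cells known for Sema4d, and of the osteoblasts it acts on, gave the following values. Their part in the difference was not tested. The mean level of 8 osteoclast markers ranged from 5.80 to 6.95 in null and from 6.46 to 6.69 in heterozygous callus, with 3 higher and 5 lower in null. One of the 8 lay at or under 3.52 on all arrays, the highest level of sex-linked transcripts on arrays that lack them. The mean of 7 T and NK cell markers, of 8 sought, ranged from 5.13 to 5.63 in null and from 5.24 to 5.63 in heterozygous callus. The mean of 7 B cell markers ranged from 5.30 to 5.67 and from 5.13 to 5.41. The mean of 8 osteoblast and osteocyte markers ranged from 7.91 to 8.57 in null and from 8.46 to 8.60 in heterozygous callus. Of these, 7 of the 8 were lower in null (49.6% of all genes were higher). Among them the mineral-binding protein gene Ibsp differed by -0.56 (SE 0.16) and the alkaline phosphatase gene Alpl by -0.32 (SE 0.10). Both were without overlap of the groups, as were 5.99% of all genes in that direction. The list means themselves overlap between the groups in all of these lists.

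Sema6a, a transmembrane semaphorin that binds Plxna2 and Plxna4, was lower in null callus on all 3 of its probe sets. Its leading probe set 1436458_at read 6.15, 5.88 and 5.83 on the null arrays and 6.70, 6.48 and 7.23 on the heterozygous ones. The groups do not overlap, and heterozygous replicate 3 had the highest value. The difference was -0.85 (SE 0.21, 95% interval -1.36 to -0.34), or 1.80-fold, and it ranged from -0.63 to -1.01 when any 1 array was left out. Probe set 1421414_a_at read 5.80, 5.91 and 5.73 against 6.25, 6.10 and 6.22, also without overlap, a difference of -0.38 (SE 0.10). The third, 1425903_at, read 5.43, 4.98 and 4.94 against 5.83, 5.31 and 6.11. Here null replicate 1 lies above heterozygous replicate 2, and the difference was -0.64 (SE 0.24). Its unadjusted p in limma was 0.0345. That p was above 0.05 in limma, at 0.0930 to 0.105, when any of heterozygous replicate 1, heterozygous replicate 3, null replicate 2 or null replicate 3 was left out, with differences of -0.46 to -0.60. The mean over the 3 probe sets differed by -0.62 (unadjusted p = 0.00856), and the adjusted p of each was 0.999.

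The receptors of Sema6a showed no difference of that size on their leading probe sets. Plxna2 differed by -0.09 (95% interval -0.55 to 0.38) and Plxna4 by -0.15 (95% interval -0.51 to 0.21). For Plxna4 the second probe set, 1457840_at, read 4.31, 3.97 and 3.97 in null against 4.96, 5.04 and 4.10 in heterozygous callus, a difference of -0.62 (SE 0.27). Heterozygous replicate 3 lay among the null values there. The mean of both probe sets differed by -0.38 (unadjusted p = 0.0152). Other class 6 members were Sema6c at 0.26, Sema6b at 0.11 and Sema6d at -0.15. The value for Sema6c was 0.0024 without null replicate 3, 0.12 without heterozygous replicate 1, 0.44 without null replicate 1 and 0.60 with array weights. Sema6d had probe sets of both signs, and its weak probe sets 1459318_at and 1446536_at spread widely, with SEs of 0.60 and 0.54.

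**Figure D2:**
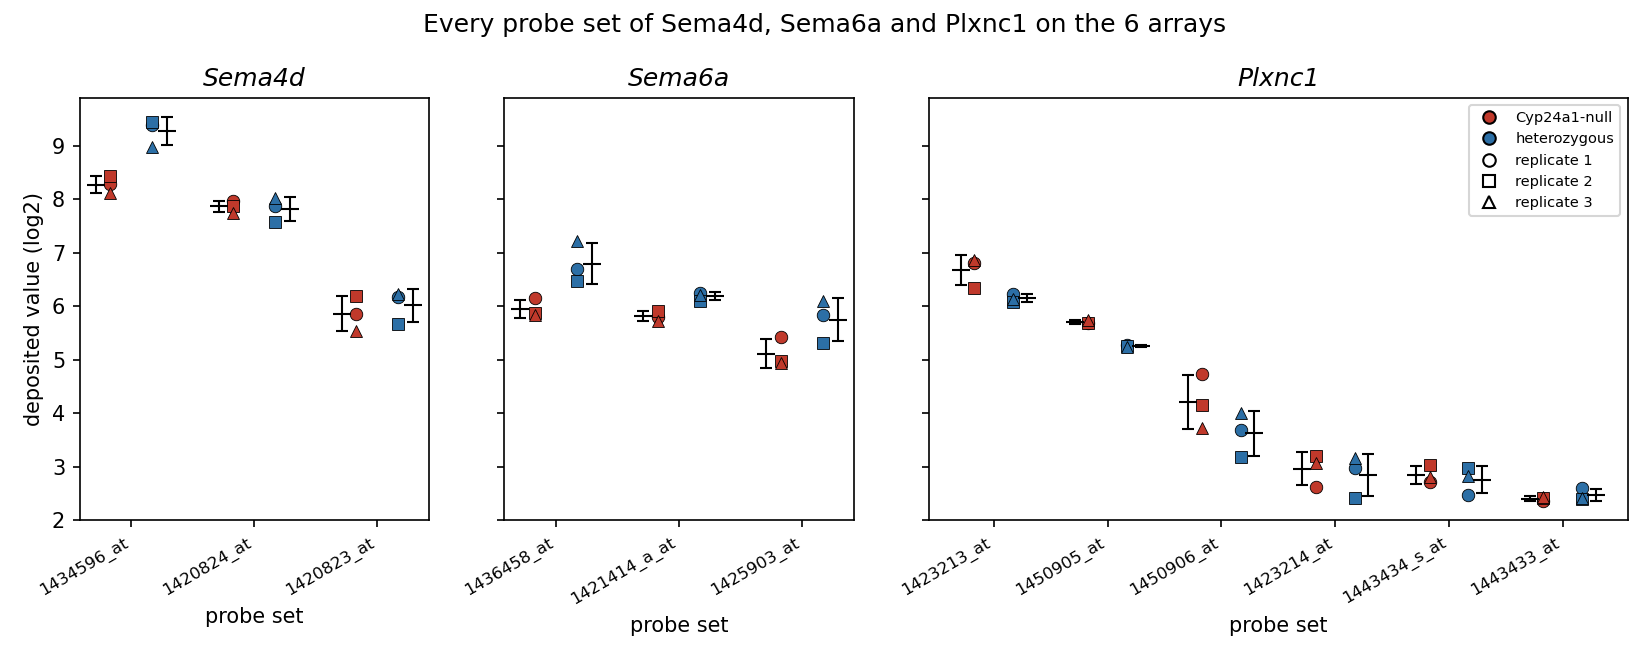
Log2 values of every probe set of Sema4d, Sema6a and Plxnc1 on the 6 arrays, with null arrays in red, heterozygous arrays in blue, a symbol for each replicate number and bars for the mean ± SD of 3 arrays. The groups separate on 1 of 3 probe sets of Sema4d, 2 of 3 of Sema6a and 2 of 6 of Plxnc1.

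Plxnc1, the receptor of Sema7a that is known from leukocytes, had a higher level in null callus. Probe set 1423213_at read 6.82, 6.35 and 6.86 on the null arrays and 6.24, 6.09 and 6.13 on the heterozygous ones. The lowest null value, that of replicate 2, lay just above the highest heterozygous value. The difference was 0.52 (SE 0.16, 95% interval 0.14 to 0.91), or 1.44-fold, with an adjusted p of 0.999. Its unadjusted p of 0.0154 became 0.0547 without null replicate 3 and 0.0771 without both marrow-poor arrays. Probe set 1450905_at was tighter, at 5.69, 5.68 and 5.75 against 5.28, 5.25 and 5.24, with no overlap. It differed by 0.45 (SE 0.09, 95% interval 0.23 to 0.67), and by 0.42 to 0.46 over the alternatives tried.

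The remaining probe sets of Plxnc1 were weaker. On 1450906_at the values were 4.73, 4.15 and 3.73 in null against 3.69, 3.18 and 4.01 in heterozygous callus, a difference of 0.58 (SE 0.31). Leaving out 1 array gave differences from 0.32 (without null replicate 1) to 0.82 (without null replicate 3), with unadjusted p from 0.302 to 0.0407. The other 3 probe sets, 1423214_at, 1443434_s_at and 1443433_at, lay at or under 3.19 on every array, within the level of the silent sex-linked transcripts (up to 3.52). They read 2.62, 3.19 and 3.08 against 2.97, 2.41 and 3.16, then 2.72, 3.03 and 2.80 against 2.48, 2.98 and 2.82, and last 2.36, 2.41 and 2.44 against 2.60, 2.39 and 2.42. Their differences of 0.12, 0.09 and -0.06 therefore carry no direction. Averaged over all 6 probe sets, the gene differed by 0.28 (unadjusted p = 0.0249).

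Sema7a, the ligand of Plxnc1, did not differ in parallel. It read 6.74, 6.32 and 6.26 in null against 6.30, 6.06 and 6.88 in heterozygous callus, a difference of 0.02 (95% interval -0.56 to 0.61). Its highest values were again on null replicate 1 and heterozygous replicate 3. All 8 macrophage markers were higher in null callus, as Plxnc1 was, where 49.6% of all genes were. By limma 3 of them (Mrc1, Cd163 and Lyz2) had an unadjusted p under 0.05, which 4.49% of all genes reached. After adjustment 0 of the 8 passed (adjusted p = 0.999). Their mean level ranged from 9.38 to 10.64 in null and from 8.97 to 9.84 in heterozygous callus, so the groups overlap, and 0 of the 8 lay at silent level on all arrays. Within the null group the mean was lowest on replicate 2, the array on which 1423213_at was lowest too, while 1450905_at was nearly equal on all 3 null arrays. Within the heterozygous group the macrophage mean and 1423213_at were also both lowest on replicate 2. On heterozygous replicate 3 the macrophage mean was 9.84, above the 9.38 of null replicate 2. There 1423213_at read 6.13, below every null value. Heterozygous replicate 3, where the neutrophil mean was 6.23, had a value of 6.13 on 1423213_at, between those of the other heterozygous arrays. Null replicate 1, where the neutrophil mean was 6.81, read 6.82, between those of the other null arrays. On 1450906_at both arrays held the highest value of their group, at 4.01 and 4.73. Keratinocyte markers, which belong to skin, were also higher in null callus for 8 of 8 genes, with the largest median difference of the 14 marker lists (1.46). Their mean level ranged from 6.71 to 8.29 in null and from 4.77 to 7.34 in heterozygous callus, so the groups overlap, and 0 of the 8 lay at silent level on all arrays. It was lowest on heterozygous replicate 1, where Plxnc1 was the highest of its group on 1423213_at. The part of neutrophils, of macrophages and of keratinocytes in the Plxnc1 difference was not tested.

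The class 3 semaphorins, secreted ligands of neuropilins, showed no difference above 0.2 in either direction on their leading probe sets. Sema3a, the guidance signal best known in bone, read 4.53, 4.24 and 4.47 in null against 4.31, 4.14 and 4.59 in heterozygous callus, a difference of 0.07 (95% interval -0.30 to 0.44). Its 2 weaker probe sets lay at or under 3.36 on all arrays. Sema3b, reported as a vitamin D target in osteoblasts, read 7.20, 6.28 and 6.34 against 6.91, 6.09 and 6.87. That is a difference of -0.02, with an interval of -0.80 to 0.77, because the arrays of each group spread over 0.8 or more. Its weakest probe set, 1431795_a_at, read 3.98, 3.83 and 3.93 in null against 4.52, 4.02 and 4.01 in heterozygous callus, a difference of -0.27 (SE 0.16) without overlap of the groups. Sema3f differed by -0.20, with all 3 of its probe sets lower in null callus (-0.20, -0.33 and -0.34) and overlapping groups. Sema3c, Sema3d, Sema3e and Sema3g lay between -0.03 and 0.06.

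Nrp1, the co-receptor of Sema3a and of vascular endothelial growth factor, read 9.32, 9.25 and 9.77 on the null arrays and 8.99, 8.72 and 9.71 on the heterozygous ones. Only heterozygous replicate 3 was as high as the null arrays. The difference was 0.31 (95% interval -0.36 to 0.98), and by limma it was 0.59 without heterozygous replicate 3 (unadjusted p = 0.0269, adjusted p = 0.793) and 0.66 with both marrow-poor arrays left out (unadjusted p = 0.0251, adjusted p = 0.644). It was 0.10 without heterozygous replicate 2. Its other 3 probe sets differed by 0.30, 0.29 and -0.03. Endothelial markers, a cell type rich in Nrp1, were higher in null callus for 8 of 8 genes (49.6% of all genes were). Their mean level was 7.71 to 8.11 in null and 7.31 to 8.08 in heterozygous callus. On heterozygous replicate 3 that mean was 8.08, and the other 2 heterozygous arrays were the lowest of the 6. The part of endothelial cells was not tested. Nrp2, the co-receptor preferred by Sema3f, differed by -0.07 on its leading probe set. Its second probe set, 1435349_at, read 7.67, 7.54 and 7.64 against 7.23, 7.27 and 7.48, a difference of 0.29 (SE 0.11, unadjusted p = 0.0379), and the others gave -0.0012 and -0.35.

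Plxna1, a signalling partner of Nrp1, read 8.14, 7.09 and 7.40 in null against 7.34, 7.18 and 8.03 in heterozygous callus, a difference of 0.03 (95% interval -0.77 to 0.82). Its weak probe set 1421232_at had the other direction, at 3.51, 3.36 and 3.33 against 3.76, 3.58 and 3.80, a difference of -0.31 (unadjusted p = 0.0304). These null values lie under the upper end of the silent level, 3.52, which only 1 Xist probe set reached. Plxna3 differed by 0.0045 and Plxnd1, the vascular receptor of Sema3e, by 0.17 (95% interval -0.51 to 0.85). Over all 79 member probe sets, 8 had an unadjusted p under 0.05, from 5 genes, a share of 10.1% where 3.69% of all probe sets did. Probe sets of 1 gene are not independent of each other.

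In class 4, Sema4a, which acts in immune cells, had the widest spread over arrays of any member. It read 6.88, 7.44 and 7.53 in null against 7.32, 7.11 and 6.09 in heterozygous callus, so its lowest values were on the 2 marrow-poor arrays. The difference was 0.44 (95% interval -0.40 to 1.28), with values from 0.07 without heterozygous replicate 3 to 0.68 without heterozygous replicate 1. Sema4g differed by 0.21, Sema4c by 0.17, Sema4b by -0.05 and Sema4f by -0.15. The class 5 members, which carry thrombospondin repeats beside the sema domain, differed by 0.09 for Sema5a and 0.02 for Sema5b. Sema5a read 6.28, 6.53 and 6.26 against 5.76, 6.09 and 6.96, and its direction depended on the arrays used: the difference was 0.43 without heterozygous replicate 3 (unadjusted p = 0.0407 in limma) and -0.17 without heterozygous replicate 1. Sema5b and Plxna4os1 lay at or under 3.52 on all 6 arrays, so they were not measured above silent level.

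The marrow-poor arrays stood out in many members, in neither genotype's favour. Null replicate 1 and heterozygous replicate 3 together held the highest 2 of the 6 values in 13 of 32 members, where 16.4% of all genes had this order. They held the lowest 2 in 3 members (Sema3c, Sema4a and Sema4f), against 16.5% of all genes, so either order held in 16 members, where 32.8% of all genes had one or the other. Plexins made up 6 of the 13 high members: Plxna1, Plxna2, Plxna4, Plxnb1, Plxnb2 and Plxnd1. Plxnd1, named here after its values were seen, read 9.09 and 9.17 on these arrays and 8.23 to 8.63 on the other 4. Sema3c, likewise named after its values were seen, went the other way, with 7.68 and 7.88 against 8.43 to 8.61. In these members 1 high or low array in each group widens the spread within groups. The 95% interval lay within 1 log2 unit of 0 for 28 of 32 members and within a 1.5-fold change for 15. Neither Sema4d, Sema6a nor Plxnc1 followed that order.

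**Figure D3:**
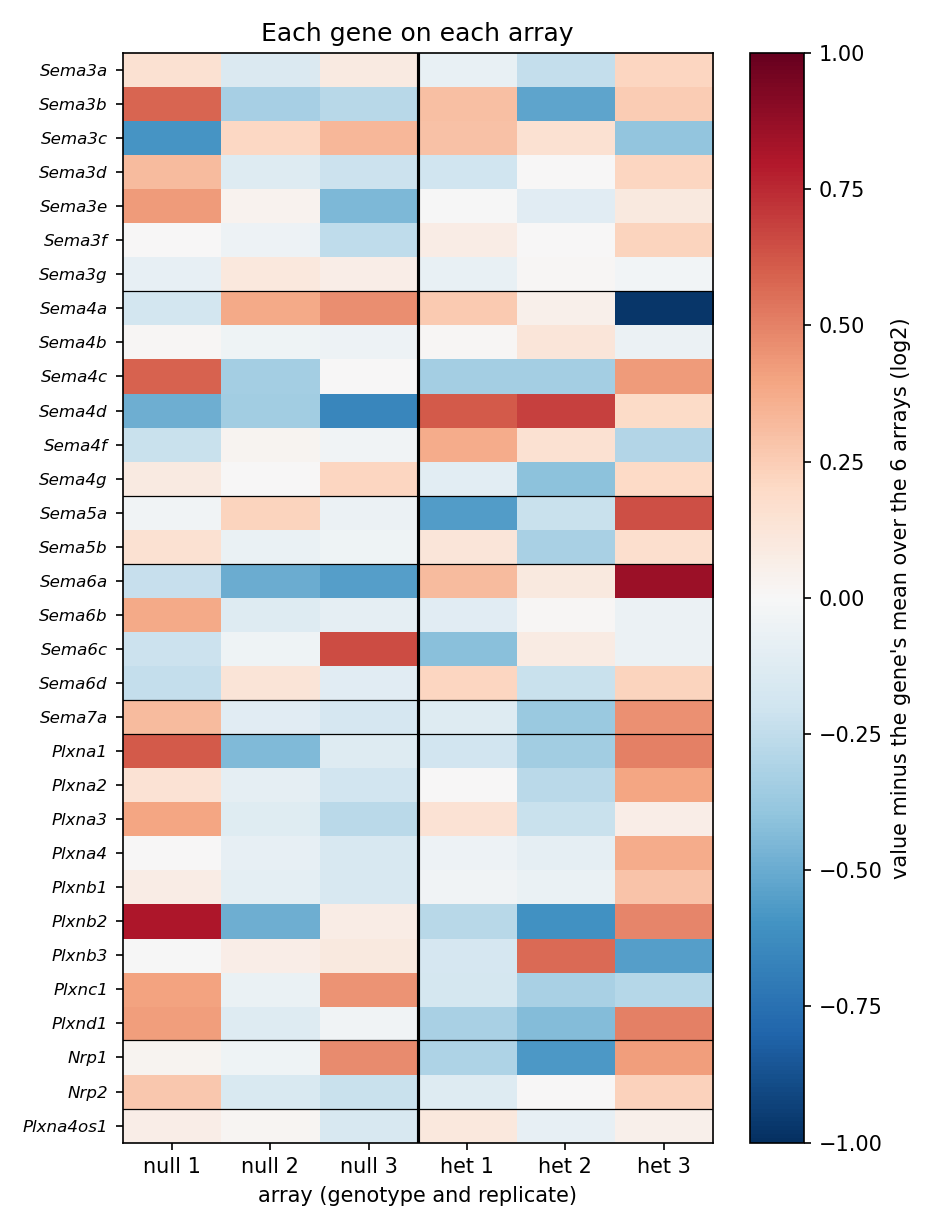
Each of the 32 genes (rows, grouped by class) on each array (columns), as the log2 value minus the gene's mean over the 6 arrays; "het" is heterozygous. Null 1 and het 3 are red for most plexins, while Sema4d and Sema6a are blue in the 3 null columns and red in the 3 het columns.

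Other genes of semaphorin signalling were taken from 4 lists, with 63 of 66 genes measured. Of these, 46 were higher (49.6% of all genes were) and 17 lower in null callus, and 0 passed limma's test (lowest adjusted p = 0.999). An unadjusted p under 0.05 was reached by 9, of which 5 were higher (2.06% of all genes) and 4 lower (2.43% of all genes). The median difference was 0.10, beside -0.0017 over all genes. The lists overlap in function with many other pathways.

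The GTPases and their regulators held 6 of the 9. Farp2, an exchange factor for Rac1 that A-type plexins bind, read 6.57, 6.22 and 6.12 in null against 6.999, 7.003 and 6.81 in heterozygous callus, a difference of -0.64 (SE 0.15). Rras2, a relative of the Ras proteins that plexins inactivate, read 7.48, 7.78 and 7.25 against 8.28, 8.26 and 7.99, a difference of -0.68 (SE 0.17). Rras, the R-Ras protein that is the classical plexin substrate, read 9.74, 9.53 and 9.38 against 9.90, 9.88 and 9.98, a difference of -0.37 (SE 0.12). In all 3 of these genes every null value was the lower. Arhgap35, a GTPase-activating protein for RhoA, differed by -0.23 (SE 0.09). Rap1b, a small GTPase that plexins also inactivate, lay on the other side, at 10.92, 11.03 and 11.02 against 10.67, 10.44 and 10.32, a difference of 0.51 (SE 0.12). Tiam1, an exchange factor for Rac1, read 6.63, 6.84 and 6.70 against 6.09, 6.33 and 5.31, a difference of 0.81 (SE 0.26). Heterozygous replicate 3 was the lowest value, by more than 0.7. The remaining 13 measured genes of this list, among them Rac1 at 0.15 and Rhoa at 0.04, did not reach the unadjusted threshold.

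Of the 22 measured kinases and cytoskeletal effectors, 2 reached it. Mical1, an oxidoreductase that takes actin filaments apart downstream of plexins, read 7.10, 6.85 and 7.11 in null against 6.51, 6.46 and 6.73 in heterozygous callus, a difference of 0.45 (SE 0.13). Dpysl2, the collapsin response mediator that carries Sema3a signals to microtubules, read 10.11, 9.84 and 10.15 against 9.59, 9.38 and 9.83, a difference of 0.44 (SE 0.15), while its other probe set had the opposite sign. Among 16 receptor subunits and alternative receptors, 1 reached it: Tyrobp, the adaptor of myeloid cells that pairs with Trem2 in a receptor complex with Plxna1. Its values were 11.06, 10.55 and 10.88 against 10.42, 10.12 and 10.54, a difference of 0.47 (SE 0.18), beside the macrophage markers given above. Trem2 itself differed by 0.57 (SE 0.66), with its highest values on the marrow-poor arrays. Of the 6 proteases, 0 reached it.

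**Figure D4:**
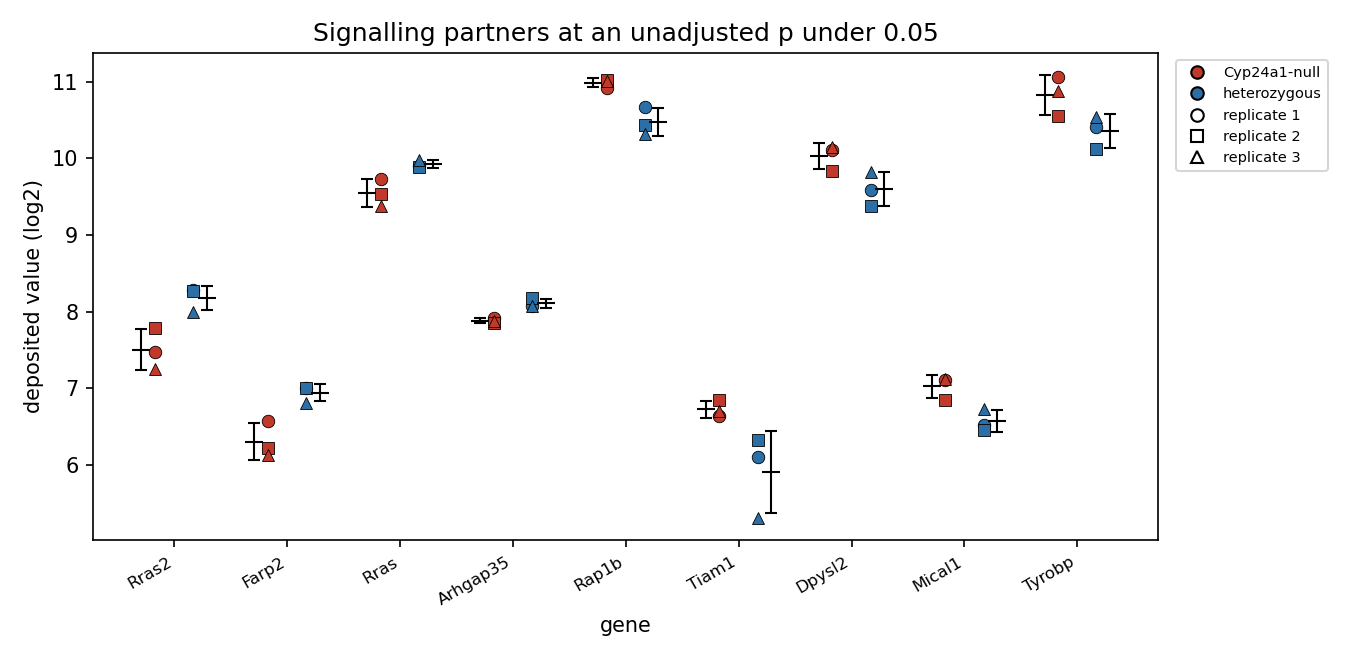
Log2 values of the 9 signalling partners at an unadjusted p under 0.05, with null arrays in red, heterozygous arrays in blue, a symbol for each replicate number and bars for the mean ± SD of 3 arrays. The groups of all 9 genes separate, 4 with null lower (Rras2, Farp2, Rras and Arhgap35) and 5 with null higher. These 9 were picked by that p-value, which favours groups that separate. Among all 63 measured partners, the groups did not overlap for 8 with null higher (4.14% of all genes) and 4 with null lower (5.99%). None passed after adjustment.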

How the data were processed

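Callus RNA from 3 null and 3 heterozygous samples was measured on Affymetrix arrays. The deposited table holds 1 value per probe set and array, taken as log2 from its range. No source used here gives the authors' background correction, summarisation or normalisation of these log2 values. All columns have nearly the same distribution, which would hide a shift common to all genes. Of 45101 probe sets, 64 controls were left out. Symbols came from the platform annotation (34945 probe sets with 1 symbol, 932 with several, 9160 with none), and all 32 members matched RefSeq by gene identifier with the same symbol.

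Differences, null minus heterozygous, were tested with limma 3.58.1 in R 4.3.3 (two-sided, 4 residual degrees of freedom plus a prior of 2.50, Benjamini-Hochberg over 45037 probe sets). No filter on level was used; 24 of the 32 members had a mean above the median level of all probe sets (4.58). The script was tested on simulated data. The silent level, up to 3.52, comes from 8 probe sets of Xist and Y-linked genes on arrays without the transcript, and was chosen after values were seen.

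Members, partner lists and marker lists were chosen with earlier results of these data known. Named by rule with values on every array were Sema4d, Plxnc1, Plxnb1, Plxnb2, Sema7a, Sema3a, Nrp1, Plxna1, Sema3b, every member with an unadjusted p under 0.05 or without overlap, and the 3 members with the largest range over the arrays. Up to 4 genes of each partner list with the lowest unadjusted p were eligible; Cd72, Mmp14, Adam17, Trem2, Rac1, Rhoa, Rras, Arhgap35, Sema5a and further probe sets of Plxna4, Plxna1, Nrp2 and Sema3b were added after values were seen. Alternatives were other normalisations, array weights, a trended prior, a level filter, a plain test, other ways to represent a gene, and leaving out arrays. The number of arrays limits the precision.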

Additional observations from a re-analysis of the deposited data

How the results depend on the processing

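No alternative brought any probe set past an adjusted p of 0.05. The directions of Sema4d, Sema6a and Plxnc1 were kept in all 14 alternatives that refitted them. These genes had groups without overlap, so the 7 alternatives that leave out arrays could not have reversed a direction. The count of members at an unadjusted p under 0.05 (3) was 2 to 5 when 1 array was left out (5 without heterozygous replicate 3, where 7.77% of all genes reached it, and 2 without null replicate 3, where 2.81% did, against 4.49% with all arrays), and 3 or 4 otherwise. Members without overlap (3) were 3 to 9 when 1 array was left out. They were 8 without null replicate 1 (24.6% of all genes) and 6 without heterozygous replicate 2 (16.8%). Without heterozygous replicate 3 they were 9 (27.0%). Leaving out both marrow-poor arrays gave 15, where 43.2% of all genes did not overlap. Fewer arrays are compared in these settings. Partner genes at the unadjusted threshold (9) were 14 with array weights, where 12.1% of all genes reached it, and 5 to 12 when 1 array was left out (5 without null replicate 3, where 2.81% of all genes reached it). The median difference of members was -0.08 to 0.08 when 1 array was left out. Of the 29 members otherwise above the unadjusted threshold, 9 changed sign without null replicate 1 and 9 without heterozygous replicate 2. Sema4b changed sign to 0.02 with the mean of its probe sets. Members that passed the unadjusted threshold only in an alternative were Nrp1, Sema5a, Plxnb3, Plxna4 and Sema6c. The cause of these shifts was not tested. Pseudocounts were planned for linear values and were not run. No paired analysis was possible because the labels number no replicates: the numbers used here follow the order of deposit, and the labels do not tie littermates to each other.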
